A study of Mus musculus with 12 samples.

Results

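The comparison described here is that of Slc6a20a+/- (HT) mice with their wild-type (WT) counterparts, 4 mice of each genotype out of 12 mice sequenced. The other 4 mice were Slc6a20a-/- (HM) animals and appear only where a gene's values are set beside them. All were male C57BL/6N mice at about postnatal day 120, and RNA from the whole brain was sequenced from each. The mutant allele lacks exon 3 of Slc6a20a in every tissue, WT, HT and HM pups came from crosses of HT parents, and pups were weaned at postnatal day 21. The labels name no treatment, no clone and no pooling, and RNA levels say nothing of the protein. A gene entered the comparison if it averaged 10 normalized counts or more over the 8 HT and WT mice, which kept 18004 of the 19775 genes in the table.

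SLC6A20A is a sodium-coupled transporter that carries proline and glycine into cells. Glycine opens inhibitory glycine receptors and is also a co-agonist that NMDA-type glutamate receptors need beside glutamate, and transporters of the same family clear it from the space around synapses. In the whole brain, neurons, glia, vessels, meninges and blood all contribute RNA, so that a lower value of a marker cannot tell fewer cells of a type from less RNA per cell.

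The deleted exon is printed first because it is what the HT mice carry in a single copy. In the GENCODE M21 annotation of GRCm38, the gene (ENSMUSG00000036814) lies on the minus strand, and exon 3 of its transcript Slc6a20a-201 spans chr9:123662949-123663040. The first line below gives the 92 bases of the exon in capitals, between 24 bases of exon 2 and 24 bases of exon 4, in the order of the transcript. The next line joins exon 2 directly to exon 4 and runs to the first stop codon in the frame that exon 2 leaves, with that stop in capitals.
exon 3 with flanks: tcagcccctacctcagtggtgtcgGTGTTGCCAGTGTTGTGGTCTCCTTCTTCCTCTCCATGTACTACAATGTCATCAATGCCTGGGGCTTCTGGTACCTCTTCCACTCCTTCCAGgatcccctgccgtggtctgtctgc
exon 2 joined to exon 4: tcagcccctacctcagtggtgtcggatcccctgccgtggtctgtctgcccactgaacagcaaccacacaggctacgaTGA
The full transcript reads 592 codons before its stop. With exon 3 left out, the first stop follows after 105 codons, of which the first 87 are shared with the full transcript. The deposited values count all reads of a gene and do not show which exons they came from.

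Expression of Slc6a20a was checked first. The 4 WT mice had 704, 584, 678 and 750.5 normalized counts and the 4 HT mice 332, 366, 372 and 310.4. Every HT value lay below every WT value, and the HT mean was 50.8% of the WT mean (log2 fold change -0.97, SE 0.09, limma, unadjusted p = 5.21e-08, BH-adjusted p = 9.38e-04). The 2 groups were separated as far as 4 mice against 4 allow, with a two-sided exact permutation p of 0.0286, the smallest this design can give. HM mice had 69.0, 55.6, 76.5 and 57.1 normalized counts, below all HT mice (HM against HT, log2 fold change -2.41, SE 0.124, limma, BH-adjusted p = 1.79e-06). It was the 1 gene called in that comparison, or 0.00556% of those tested. The HT call was lost in a fit without a trend in the variance prior (limma, BH-adjusted p = 0.145).

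Slc6a20a was the only gene with a Benjamini-Hochberg (BH) adjusted p under 0.05, which is 0.00555% of the genes tested. For all other genes and lists, counts at an unadjusted p under 0.05 are therefore descriptions, read against the share of all genes that reach it. That share was 6.42% (1156 genes), of which 569 genes (3.16%) were higher and 587 genes (3.26%) lower in HT mice. For 327 genes (1.82%) every HT mouse was above every WT mouse, and for 344 genes (1.91%) every HT mouse was below. Over all genes, 9004 log2 fold changes were positive and 9000 negative, 50.0% each. Limma was fitted to log2(normalized count + 1), so every fold change is on that scale and understates the change of genes with low values.

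The normalized counts of the 8 mice summed to between 33284951 and 33748623, sums that the authors' normalization had made alike and that say nothing of depth. WT replicate 1 stood apart from the other 7 mice in several gene classes described below, and it alone has an animal number that starts with 274. The other mice have numbers that start with 276 (WT replicate 2 and HT replicates 1 and 2) or 278 (WT replicates 3 and 4 and HT replicates 3 and 4). What these number starts stand for is not given in the sources used here. For the lists that moved most with WT replicate 1, values are also given without it, the counts of several lists moved with other mice as well, and medians within the starts are given for lists where they bear on the direction. General neuronal markers, the check of the labelled tissue, had 0 of 15 genes at an unadjusted p under 0.05 in either direction and a median log2 fold change of 0.02.

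**Figure D1:**
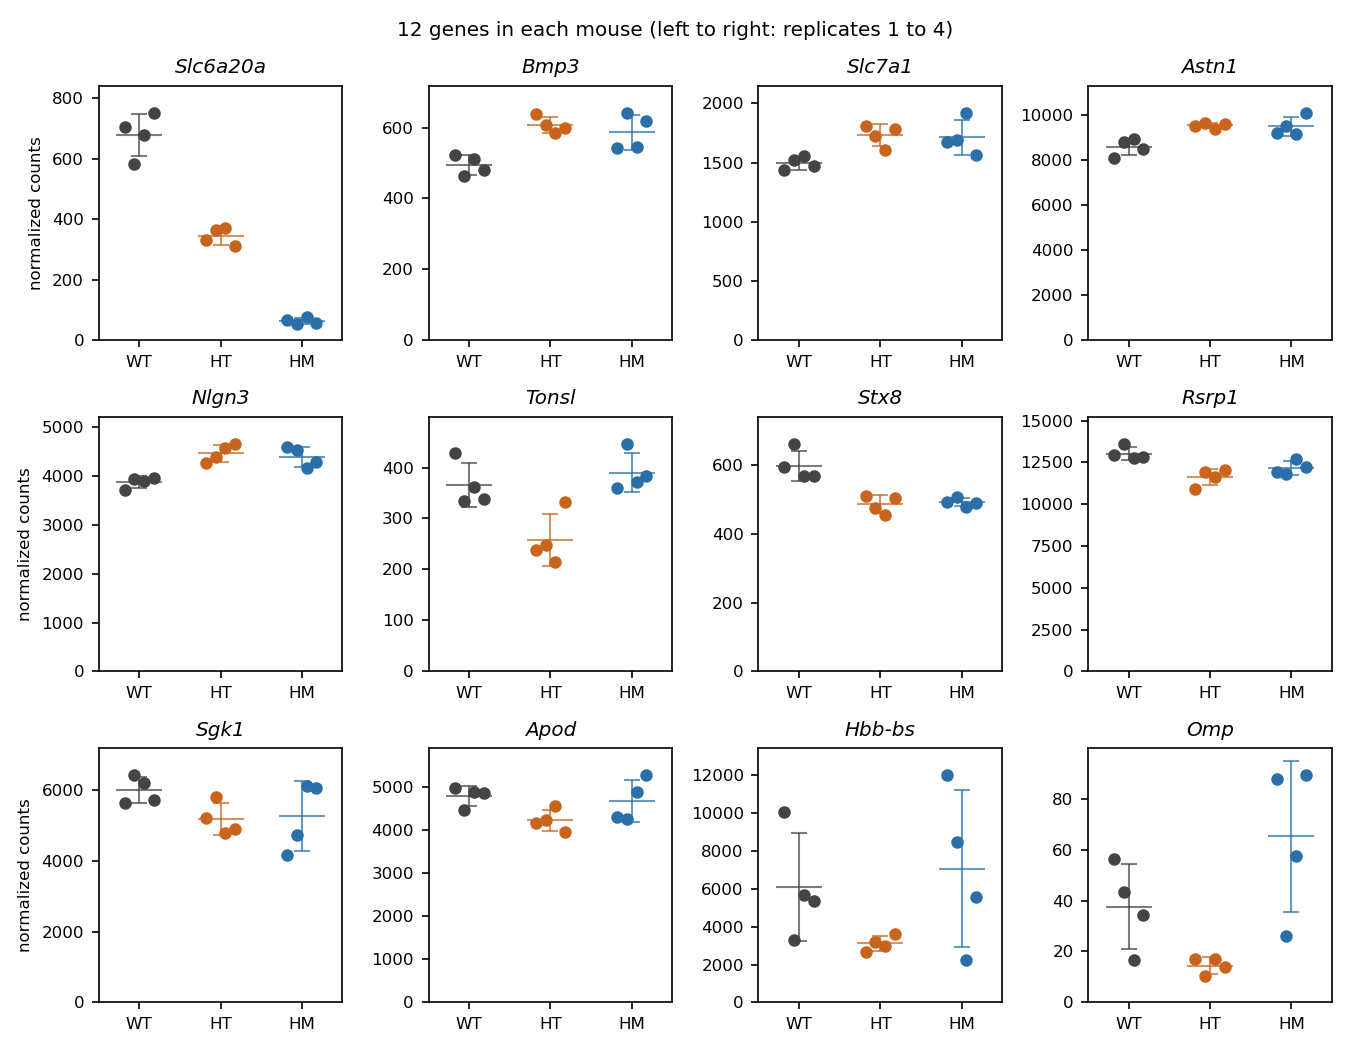
Normalized counts (vertical axes from 0) of 12 genes in each WT, HT and HM mouse, drawn as points for replicates 1 to 4 from left to right, with the mean and SD of each genotype. Slc6a20a falls stepwise over the genotypes, Bmp3, Slc7a1, Astn1 and Nlgn3 have all HT values above all WT values, and Tonsl, Stx8 and Rsrp1 have all HT values below all WT values, whereas Sgk1, Apod, Hbb-bs and Omp overlap.

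Protein-coding genes that averaged at least 100 normalized counts and showed no overlap between HT and WT mice were ranked by p, leaving out the genes that the study lists as altered in HT mice, and the first 10 in each direction were taken. On the higher side, Bmp3 came first (ENSMUSG00000029335, chromosome 5 from 98854415 to 98884396), a secreted ligand of the bone morphogenetic protein family. WT mice had 523, 462, 511 and 479 normalized counts of Bmp3 and HT mice 638, 606, 585 and 598 (log2 fold change 0.30, SE 0.07, limma, unadjusted p = 5.44e-04, BH-adjusted p = 0.726). The lowest HT mouse was above the highest WT mouse, and the HM mean was 586. Slc7a1 (ENSMUSG00000041313, chromosome 5 from 148327410 to 148399904) encodes the cationic amino acid transporter CAT-1, which brings arginine and lysine into cells. Its WT values were 1436, 1524, 1552 and 1468 and its HT values 1813, 1723, 1604 and 1786 (log2 fold change 0.21, SE 0.05, limma, unadjusted p = 0.00132, BH-adjusted p = 0.726). All HT mice were again above all WT mice, with replicate 3 the lowest of the HT mice. Slc16a14, a member of the monocarboxylate transporter family, had 179, 229.6, 186 and 202 normalized counts in WT and 269, 262, 244 and 272 in HT mice (log2 fold change 0.40, SE 0.10, limma, unadjusted p = 0.00136, BH-adjusted p = 0.726).

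Astn1, astrotactin 1, a membrane protein of migrating neurons, had 8107, 8782, 8940.3 and 8479.8 normalized counts in WT and 9525, 9633, 9391 and 9616 in HT mice (log2 fold change 0.15, SE 0.04, limma, unadjusted p = 0.00156, BH-adjusted p = 0.726). Robo2, a receptor for the Slit guidance cues, had 3454, 3389, 3279 and 3377 in WT and 3756, 3800.1, 3584 and 3968 in HT mice (log2 fold change 0.16, SE 0.04, limma, unadjusted p = 0.00202, BH-adjusted p = 0.74). In both genes the HT mice formed a group above the WT mice, by a small margin relative to the level. Caln1, the neuronal calcium-binding protein calneuron 1, had 8021, 9599, 9168 and 8660.2 normalized counts in WT and 9922, 10499, 9741 and 10544 in HT mice (log2 fold change 0.20, SE 0.05, limma, unadjusted p = 0.00218, BH-adjusted p = 0.74). WT replicate 1 was the lowest mouse for Astn1 and for Caln1. The remaining genes were Reep6, which shapes endoplasmic reticulum membranes (0.34), Dsel, a dermatan sulfate epimerase-like enzyme (0.29), Actr10, a dynactin subunit (0.19), and Dcaf17, a CUL4-associated factor (0.33), with log2 fold changes in brackets and BH-adjusted p of 0.73 each (limma).

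On the lower side, Stx8, a SNARE protein of endosomes, had 593, 659.5, 566 and 568 normalized counts in WT and 509.8, 473, 454 and 502 in HT mice (log2 fold change -0.30, SE 0.07, limma, unadjusted p = 0.00109, BH-adjusted p = 0.726). The highest HT mouse was below the lowest WT mouse. Cox19, an assembly factor of cytochrome c oxidase, had 1010, 998, 872 and 952 in WT and 809, 799, 854 and 741 in HT mice (log2 fold change -0.26, SE 0.06, limma, unadjusted p = 0.00151, BH-adjusted p = 0.726). Rsrp1, an arginine- and serine-rich protein, had the highest level of the group, with 12953, 13582, 12731 and 12798 normalized counts in WT and 10909, 11911, 11628 and 12029 in HT mice (log2 fold change -0.16, SE 0.04, limma, unadjusted p = 0.00144, BH-adjusted p = 0.726).

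Tonsl (ENSMUSG00000059323, chromosome 15 from 76626002 to 76639958), which acts in the repair of stalled replication forks, differed in the same way between HT and the other genotypes. WT mice had 428, 335, 363 and 339 normalized counts, HT mice 237, 247, 215 and 333 and HM mice 360.2, 446, 371 and 383. The HT values were lower than all WT values (log2 fold change -0.52, SE 0.13, limma, unadjusted p = 0.00135, BH-adjusted p = 0.726) and lower than all HM values (HM against HT, log2 fold change 0.61, SE 0.123, limma, unadjusted p = 3.04e-04, BH-adjusted p = 0.456). HT replicate 4 lay only just below the lowest WT mouse. In the comparison of HM with HT mice 3.74% of genes had an unadjusted p under 0.05, and in that of HM with WT mice 6.99%. Further genes with a small p on this side were 4930503L19Rik (-0.33), Fam193b (-0.18), the cadherin O-mannosyltransferase gene Tmtc2 (-0.30) and the adaptor gene Lime1 (-0.25), besides the globin gene Hbb-bt described with the blood markers.

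Protein-coding genes with a mean of 100 or more and an unadjusted p under 0.05 were next ranked by the size of the fold change, Slc6a20a aside. On the higher side, Cacna2d4, an auxiliary calcium channel subunit, had 61.3, 145, 71.1 and 163 normalized counts in WT and 189.7, 228, 159 and 138 in HT mice (log2 fold change 0.79, SE 0.28, limma, unadjusted p = 0.0133, BH-adjusted p = 0.768). The groups overlapped, since WT replicate 4 was above HT replicates 3 and 4. Xlr3b, Eya2, Iqschfp and Pappa2 had log2 fold changes of 0.66, 0.53, 0.51 and 0.45 at means between 102 and 161 normalized counts, and the genotypes overlapped in each of them. Xlr3b has near-identical copies on the X chromosome, so its count is uncertain. On the lower side, Fam205a3 was listed at 0 in HT replicates 1 and 2 and had 424 and 193 normalized counts in HT replicates 3 and 4, against 444, 391, 652 and 295 in WT mice. It belongs to a family of near-identical copies, and how the authors' estimates divided reads among them is not known.

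A few genes were at 0 in whole groups of mice. Gm49450 was at 0 in all 4 WT and all 4 HM mice and had 91.2, 55.0, 0 and 84.3 normalized counts in HT mice. Gm37206 was at 0 in all HT mice, and WT mice had 54.8, 0, 52.6 and 44.7. Gm1980 was at 0 in HT replicates 1, 2 and 4 and had 26.4 in HT replicate 3, against 22.4, 13.7, 29.8 and 26.9 in WT mice. The values of these predicted genes jump between 0 and clearly higher counts within a genotype, and whether their transcripts share sequence with other genes was not tested. With HT replicate 3 left out, Gm49450, Gm1980, Cdc73 (log2 fold change 0.55) and Col24a1 (-0.85) joined Slc6a20a below an adjusted p of 0.05, and with WT replicate 2 left out Gm37206 did (limma, BH).

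Differences between HT and WT mice were sorted by the level of expression. Of the genes at an unadjusted p under 0.05, those with high levels were mostly higher in HT mice and those with low levels mostly lower. The counts of higher and lower genes that follow are at that p. Of the 507 genes with a mean over 10000 normalized counts, 48 were higher and 14 lower, and 386 of them had a positive log2 fold change. Of the 2122 genes between 3000 and 10000, 161 were higher and 59 lower. The higher genes of that class ran from 81 (47 lower) without HT replicate 4 to 202 (66 lower) without WT replicate 2. At 1000 to 3000 the counts were nearly equal, 148 and 147 of 4009 genes. Below that, lower values prevailed, with 95 higher and 142 lower of 4114 genes between 300 and 1000, 38 and 62 of 2388 between 100 and 300, 46 and 86 of 2461 between 30 and 100, and 33 and 77 of 2403 between 10 and 30.

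The sizes behind these counts were small. The median log2 fold change was 0.04 in the highest class and -0.03 in the lowest. The highest class had 47 genes higher and 15 lower without WT replicate 1, and the lowest class 37 and 83. Higher genes of the highest class ran from 26 without HT replicate 4 to 66 without HT replicate 2 or WT replicate 2. The lower genes of that class then numbered 9, 17 and 14, respectively. Quantile normalization is a scaling that gives every mouse the same distribution of values, so it cannot decide whether a trend with level is real. After it the medians were 0.0072 and 0.0094, and those of the 7 classes lay between 0.0013 and 0.0094, with no trend from low to high levels. The genes at an unadjusted p under 0.05 then numbered 24 higher and 20 lower in the highest class and 84 and 89 between 3000 and 10000. With the trend of each mouse with transcript length and GC content removed, they were 38 and 20 in the highest class and 84 and 99 in the next. In that fit 3.96% of genes between 3000 and 10000 were higher and 4.67% lower, against 2.38% and 3.83% of all genes. The leading genes of the classes were Immp2l at 30 to 100 normalized counts, Serhl at 100 to 300, Slc6a20a at 300 to 1000, Nacad at 1000 to 3000, Nlgn3 at 3000 to 10000 and Snrnp70 above 10000. Immp2l, a peptidase of the inner mitochondrial membrane, had 104, 99.2, 114 and 99.4 in WT and 58.3, 57.7, 81.8 and 63.8 in HT mice (log2 fold change -0.67, SE 0.15, limma, unadjusted p = 4.60e-04, BH-adjusted p = 0.726), with no overlap.

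**Figure D2:**
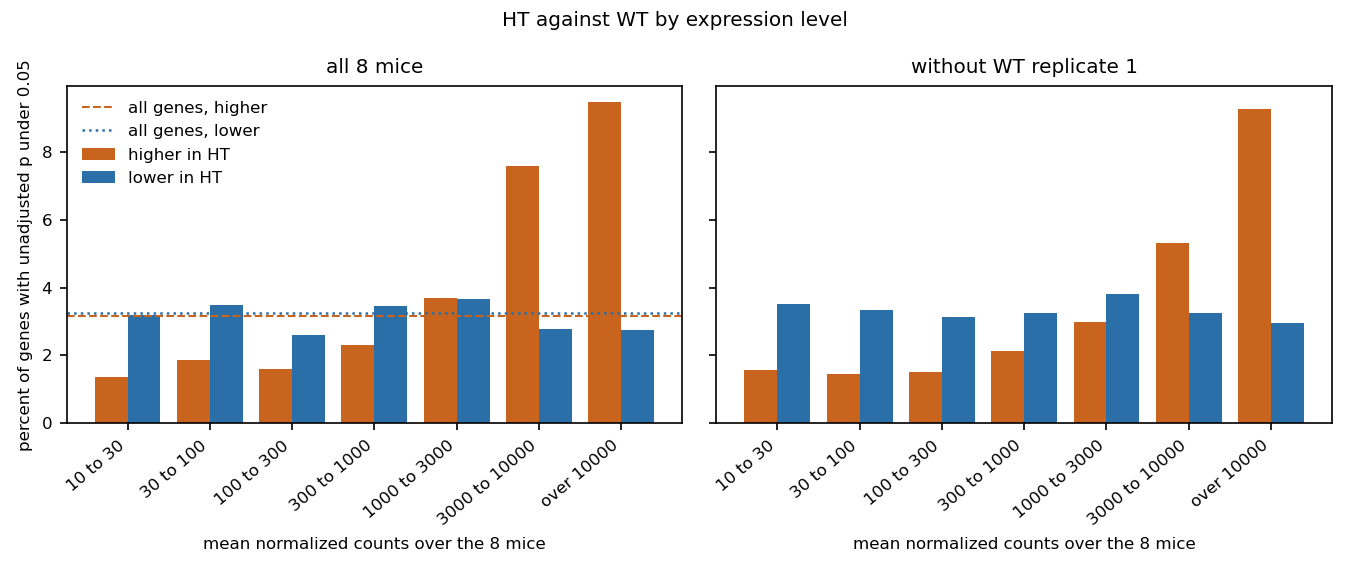
Percent of genes with an unadjusted p under 0.05 (vertical axis) that were higher or lower in HT mice, by mean normalized count over the 8 mice (horizontal axis), for all 8 mice and without WT replicate 1, with dashed and dotted lines at the shares of all genes. Lower genes exceed higher genes in the 4 classes below 1000, and higher genes exceed lower genes in the 2 classes above 3000.

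Transcript length sorted the genes more sharply, and this rested in good part on WT replicate 1. The 15130 protein-coding genes tested were split into quintiles by their longest annotated transcript. In the quintile with the shortest transcripts, up to 2023 bases, 9 genes were higher and 158 lower in HT mice at an unadjusted p under 0.05. In the quintile with the longest, from 5317 bases, 259 were higher and 49 lower. The counts became 33 and 107 in the shortest quintile and 151 and 108 in the longest when WT replicate 1 was left out. The centred log2 values of WT replicate 1 averaged 0.10 over the shortest quintile and -0.09 over the longest, whereas the other 7 mice lay between -0.06 and 0.04 and between -0.0044 and 0.03.

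**Figure D3:**
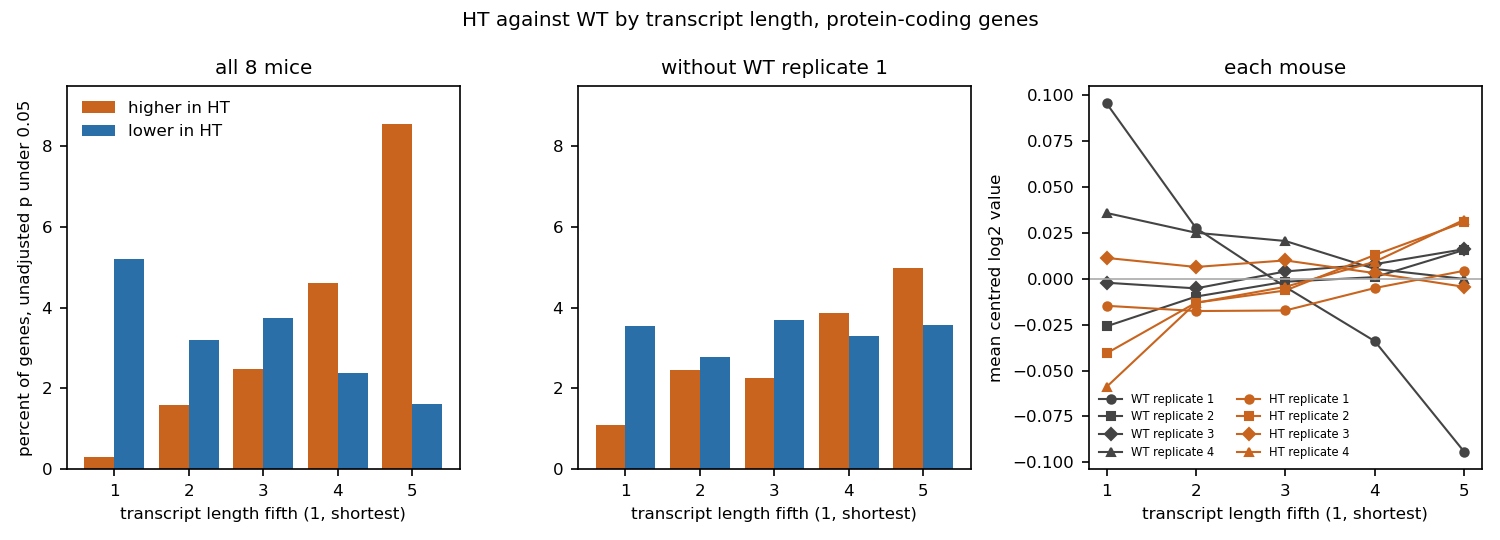
Percent of protein-coding genes with an unadjusted p under 0.05 (vertical axes, left and middle panels) by quintile of transcript length (horizontal axes), for all 8 mice and without WT replicate 1, and the mean centred log2 value of each quintile in each mouse (right-hand panel). WT replicate 1 runs from 0.10 in the shortest to -0.09 in the longest quintile, a wider span than any other mouse.

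Cell types were compared through lists of marker genes. Of the neuronal lists, that of hippocampal neurons had the largest share of genes at an unadjusted p under 0.05. 11 of its 14 genes had a positive log2 fold change and 5 (35.7%, against 3.16% of all genes) were higher in HT mice. Wfs1, a CA1 marker that encodes the endoplasmic reticulum protein wolframin, had 3654, 3846, 4154 and 3884 normalized counts in WT and 4232, 4157, 4849 and 4491 in HT mice (log2 fold change 0.19, SE 0.05, limma, unadjusted p = 0.00421, BH-adjusted p = 0.765), with HT replicate 2 only just above WT replicate 3. Prox1, the transcription factor of dentate granule cells, had 977, 1058, 1104 and 1214 in WT and 1189, 1267, 1154 and 1222 in HT mice (log2 fold change 0.15, SE 0.07, limma, unadjusted p = 0.0353, BH-adjusted p = 0.77), and here WT replicate 4 lay within the HT range. C1ql3, Fibcd1 and Calb1 had log2 fold changes of 0.14, 0.15 and 0.11. The list median was 0.11 and dropped to 0.05 with 3 genes when WT replicate 1, the lowest mouse for this list, was left out. Without HT replicate 2 or without WT replicate 2, 2 genes (14.3%) were at this level. Another neuronal list then had a larger share, monoamine and cholinergic markers (18.2%) or striatal markers (27.8%), respectively. With the start of the animal number as a block, the hippocampal median was 0.03.

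Markers of striatal projection neurons were nearly all on the higher side, 17 of 18, with a median of 0.07 (0.06 without WT replicate 1). At an unadjusted p under 0.05, 3 of them were higher, 1 without WT replicate 1 or HT replicate 2 and 5 without WT replicate 2. Adcy5, the main adenylyl cyclase of the striatum, had 11165, 11875, 11525 and 11999 normalized counts in WT and 12282, 12783, 12566 and 12407 in HT mice (log2 fold change 0.10, SE 0.04, limma, unadjusted p = 0.0135, BH-adjusted p = 0.768), without overlap. Foxp1, a transcription factor of the same cells, had 2838, 3412, 3443 and 3126 in WT and 3479.8, 3557, 3494 and 3454 in HT mice (log2 fold change 0.13, SE 0.06, limma, unadjusted p = 0.0399, BH-adjusted p = 0.77), a narrow gap between the groups. Rarb had a log2 fold change of 0.25, and the dopamine receptor genes Drd1 and Drd2 of 0.10 and 0.10, both above an unadjusted p of 0.05. In HM mice the median for this list was -0.02 against the same WT mice and -0.09 against HT mice.

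GABAergic interneuron markers went in both directions. 4 of 21 were higher and 2 lower at an unadjusted p under 0.05. These counts were 1 and 0 without HT replicate 1, where the median went from 0.05 to 0.0055, and 2 and 1 without WT replicate 1. Gad2, which makes GABA at synaptic endings, had 8402, 9026, 9155 and 8595 normalized counts in WT and 9389.6, 9779, 9324 and 9559.6 in HT mice (log2 fold change 0.11, SE 0.04, limma, unadjusted p = 0.0121, BH-adjusted p = 0.768). Dlx1, a transcription factor of forebrain interneurons, had 1121, 1074, 1057 and 1056 in WT and 1193, 1223, 1129 and 1155 in HT mice (log2 fold change 0.13, SE 0.05, limma, unadjusted p = 0.0265, BH-adjusted p = 0.77). Both genes separated the genotypes. Vip, the vasoactive intestinal peptide of a class of interneurons, had 917, 933, 907 and 882 in WT and 803, 852, 846 and 828 in HT mice (log2 fold change -0.13, SE 0.05, limma, unadjusted p = 0.0272, BH-adjusted p = 0.77), all HT mice lying below all WT mice. Pvalb, the calcium buffer of fast-spiking cells, also had all HT values below all WT values (log2 fold change -0.19, SE 0.08, limma, unadjusted p = 0.0295, BH-adjusted p = 0.77), and Sst differed by -0.0012.

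The other neuronal lists held few genes at this level. Bcl11b was the only one of 18 markers of cortical excitatory neurons (log2 fold change 0.15, SE 0.05, limma, unadjusted p = 0.0124, BH-adjusted p = 0.768), and Chat, which makes acetylcholine, the only one of 10 markers of monoamine and cholinergic neurons (log2 fold change 0.36, SE 0.13, limma, unadjusted p = 0.0175, BH-adjusted p = 0.768). None of 10 thalamic, 15 cerebellar and 14 hypothalamic neuropeptide genes reached it, with medians of 0.05, 0.05 and 0.07. Among olfactory bulb markers only Omp, the olfactory marker protein of sensory axons that end in the bulb, did. It had 56.4, 43.4, 16.6 and 34.2 normalized counts in WT, 16.9, 10.2, 17.0 and 13.9 in HT and 87.5, 26.2, 57.6 and 89.2 in HM mice (HT against WT, log2 fold change -1.22, SE 0.34, limma, unadjusted p = 0.00311, BH-adjusted p = 0.75). WT replicate 3 lay within the HT range. The olfactory bulb list had a median of -0.15 in HT mice, 0.0038 without WT replicate 1, and its mean over the list ranged from -0.24 to 0.46 among WT mice alone.

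Astrocyte markers had 16 of 19 positive log2 fold changes with a median of 0.04. Without WT replicate 2 there were 10 positive and 9 negative values with a median of 0.02, and the genes at an unadjusted p under 0.05 went from 3 higher and 0 lower to 1 of each. The study's own set of astrocyte genes had 41 positive and 49 negative values. Slc4a4, a bicarbonate transporter, had 5602, 6036, 5996 and 6195 normalized counts in WT and 6512, 6508, 6341 and 6312 in HT mice (log2 fold change 0.11, SE 0.04, limma, unadjusted p = 0.018, BH-adjusted p = 0.768), without overlap. Slc1a2, the main glutamate transporter of the forebrain, had 73512, 79640, 85286 and 83655 in WT and 86947, 89057, 84415 and 85952 in HT mice (log2 fold change 0.11, SE 0.05, limma, unadjusted p = 0.0433, BH-adjusted p = 0.77), and WT replicate 3 reached into the HT range. Sox9 had a log2 fold change of 0.25, whereas Gfap, which marks reactive astrocytes, and the water channel gene Aqp4 had 0.05 and 0.03 at unadjusted p over 0.05. Of 12 markers of oligodendrocyte precursors only Neu4 (-0.18) was at this level. None of the 20 microglial markers reached an unadjusted p under 0.05, with a median of -0.02. At that p, 3 were higher without WT replicate 4 (median 0.009) and 3 lower without WT replicate 2 (median -0.05).

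Markers of mature oligodendrocytes were mostly on the lower side, 16 of 19, by a median of -0.04. Apod, a lipid-binding secreted protein, had 4974, 4449, 4877 and 4858 normalized counts in WT and 4149.7, 4218, 4538 and 3958 in HT mice (log2 fold change -0.18, SE 0.05, limma, unadjusted p = 0.00277, BH-adjusted p = 0.75). Hapln2, which links matrix proteins at nodes of Ranvier, had 1351, 1551, 1635 and 1543 in WT and 1377, 1150.3, 1360.5 and 1329.7 in HT mice (log2 fold change -0.22, SE 0.07, limma, unadjusted p = 0.00806, BH-adjusted p = 0.768). In each gene 1 mouse overlapped, WT replicate 2 for Apod and WT replicate 1 for Hapln2. The structural myelin genes Mbp and Mobp had log2 fold changes of -0.07 and -0.07, neither at an unadjusted p under 0.05. The list median was 0.11 among mice with numbers starting 276 and -0.12 among those starting 278. Leaving out WT replicate 4 gave 10 positive and 9 negative values with a median of 0.0014.

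Of 19 endothelial markers, 13 had a positive log2 fold change, with a median of 0.09, and 1 was higher and 2 lower at an unadjusted p under 0.05. The last counts were 8 and 1 without WT replicate 4. Tek, the angiopoietin receptor of endothelial cells, had 300.3, 292, 305 and 403 normalized counts in WT and 366, 454, 402 and 381 in HT mice (log2 fold change 0.31, SE 0.11, limma, unadjusted p = 0.0135, BH-adjusted p = 0.768), and WT replicate 4 was higher than 3 of the HT mice. The glucose transporter gene Slc2a1 (-0.17) and Ly6a (-0.18) were on the other side. Of 14 meningeal markers 12 had a negative log2 fold change, with Lum, a collagen-binding proteoglycan, at 76.7, 81.2, 88.6 and 96.3 in WT and 72.8, 66.1, 69.3 and 64.4 in HT mice (log2 fold change -0.32, SE 0.13, limma, unadjusted p = 0.0321, BH-adjusted p = 0.77). The median of this list was 0.22 among mice with numbers starting 276 and -0.29 among those starting 278, so its direction differed between them, and without WT replicate 4 its genes were divided into 7 positive and 7 negative. Choroid plexus, ependymal and pericyte markers held 0 genes at an unadjusted p under 0.05 in either direction. In the choroid plexus list the mean over genes ranged from -0.34 to 0.32 among HT mice. At that p, 4 of its 13 genes were lower without HT replicate 3 (median -0.17), and 1 was higher without WT replicate 4 (median 0.06). Of the pituitary markers only Tshb was tested (0.20).

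Blood markers made up the list with the largest median fold change. All 6 erythrocyte genes tested, of 9 listed, were lower in HT mice at an unadjusted p under 0.05, against 3.26% of all genes, with a median of -0.78. They comprise the alpha and beta globin genes, the heme synthesis enzyme gene Alas2 and Bpgm, whose product regulates oxygen release. Hbb-bt had 1433, 526, 907 and 780.3 normalized counts in WT and 422, 459.9, 394 and 499 in HT mice (log2 fold change -0.95, SE 0.21, limma, unadjusted p = 6.42e-04, BH-adjusted p = 0.726). Alas2 had 198, 127, 192 and 112 in WT and 73.3, 93.9, 78.6 and 98.5 in HT mice (log2 fold change -0.83, SE 0.19, limma, unadjusted p = 6.59e-04, BH-adjusted p = 0.726). Both separated the genotypes, though WT replicate 2 was near the HT mice for Hbb-bt and WT replicate 4 for Alas2. Hbb-bs had 10077, 3297, 5676 and 5369 in WT and 2670.2, 3205, 2985 and 3622 in HT mice (log2 fold change -0.86, SE 0.23, limma, unadjusted p = 0.00261, BH-adjusted p = 0.75), with WT replicate 2 inside the HT range.

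Hba-a1, Hba-a2 and Bpgm had log2 fold changes of -0.70, -0.72 and -0.15, and reads of the near-identical alpha globin genes may be shared between them. The summed level of the list ran from 9405 to 23934 normalized counts in WT and from 8239 to 10332 in HT mice, with overlap. The list median was -0.20 among mice with numbers starting 276 and -0.66 among those starting 278. WT replicate 1 was the highest of the 8 mice, and without it the median was -0.54 with 5 of 6 genes at an unadjusted p under 0.05. Hbb-bs in HM mice was 11991, 8444, 2262 and 5538, so the 4 HM mice spanned more than the WT mice did. Slc4a1, an anion exchanger of red cells, was below the filter in both genotypes, with means of 3.54 and 3.96 normalized counts. The share of blood in each brain is not recorded in the labels, and its part in the other results was not tested.

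**Figure D4:**
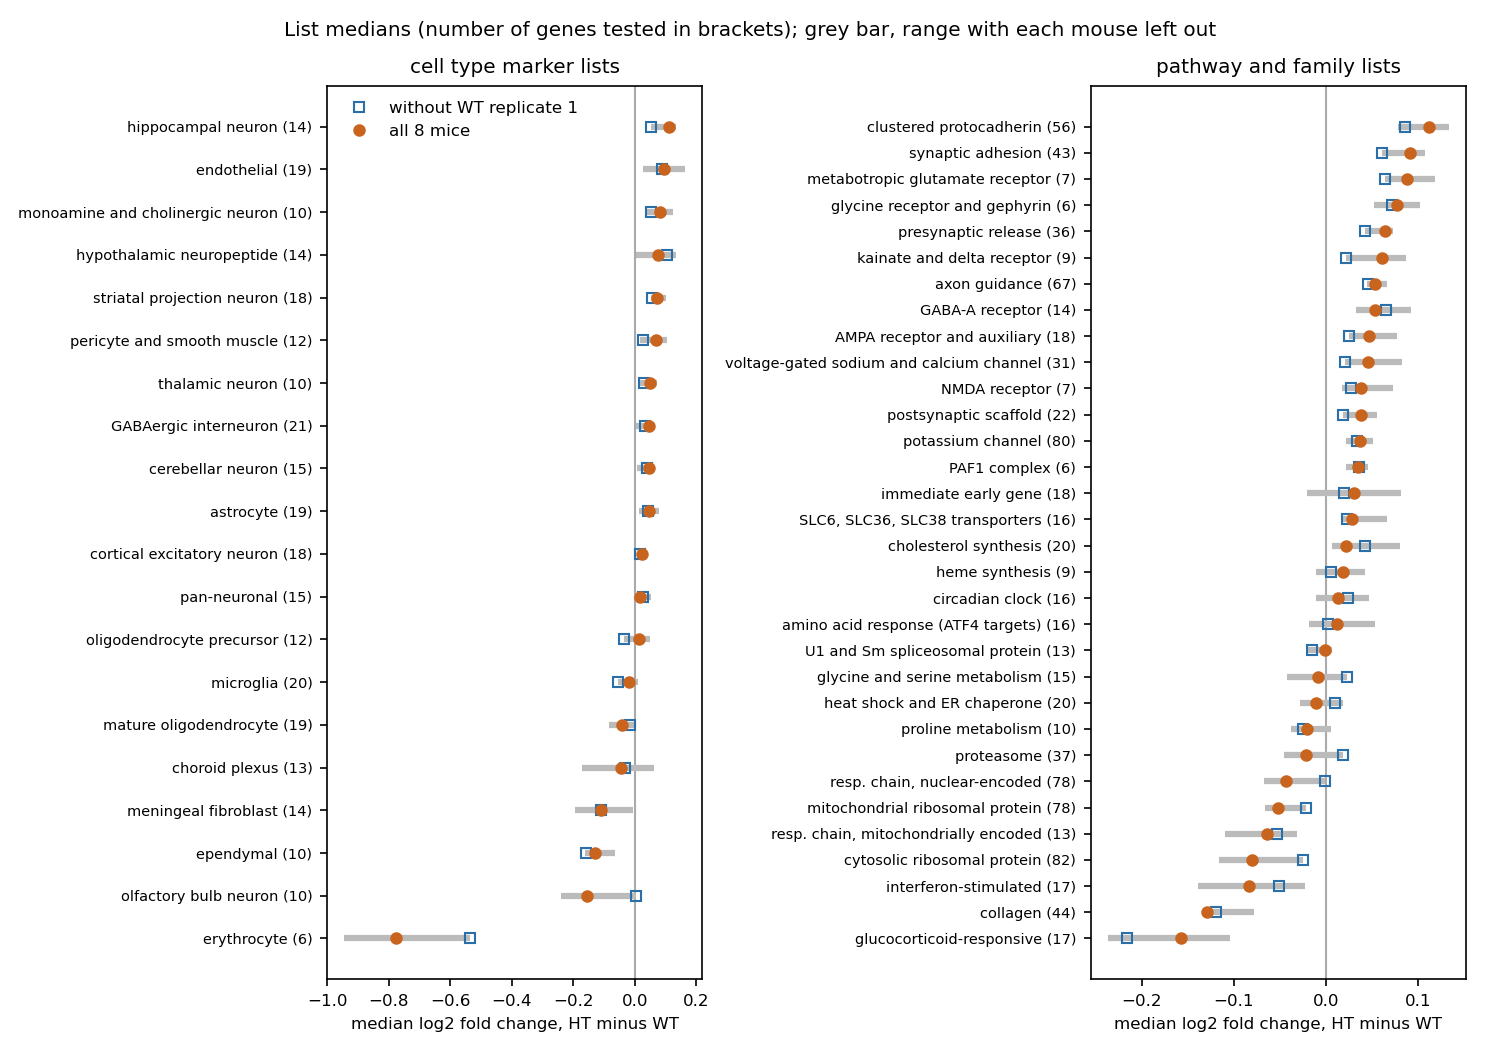
Median log2 fold change of HT minus WT (horizontal axes, log2) for each marker list and each pathway list, with the number of genes tested in brackets, for all 8 mice (filled) and without WT replicate 1 (open), and the range of medians with each mouse left out in turn (grey). The erythrocyte list has the lowest median, and the open symbols of the ribosomal and respiratory chain lists lie nearer 0 than the filled ones.

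Genes of the pathway that SLC6A20A belongs to were considered next. Of 16 related amino acid transporters only Slc6a17, a vesicular transporter that takes up proline and glycine among others, reached an unadjusted p under 0.05. It had 17279, 19672, 19485 and 18109 normalized counts in WT and 20610, 19743, 19973 and 20767 in HT mice (log2 fold change 0.12, SE 0.05, limma, unadjusted p = 0.0171, BH-adjusted p = 0.768), the lowest HT mouse lying only just above the highest WT mouse. The glycine transporter genes Slc6a9 (GlyT1) and Slc6a5 (GlyT2) had log2 fold changes of 0.03 (SE 0.0627) and 0.41 (SE 0.485), and the brain proline transporter gene Slc6a7 of -0.0056 (SE 0.057). Slc6a20b, the nearest relative of the targeted gene, had a log2 fold change of -0.12 (SE 0.225) and may share reads with it. Leaving out WT replicate 1 gave 3 higher genes and 1 lower gene at an unadjusted p under 0.05 in this list.

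Among 15 genes of glycine and serine metabolism, 3 were higher in HT mice at an unadjusted p under 0.05, a number that was 0 without HT replicate 2, 2 without WT replicate 1 and 5 without HT replicate 3. Gldc, the glycine decarboxylase that degrades glycine in mitochondria, had 640.4, 547, 675 and 665 normalized counts in WT and 729, 762, 697 and 675 in HT mice (log2 fold change 0.18, SE 0.08, limma, unadjusted p = 0.0296, BH-adjusted p = 0.77). HT replicate 4 and WT replicate 3 were nearly equal, so the gap between the genotypes was negligible. Shmt1, which converts serine to glycine in the cytosol, had 56.6, 86.5, 94.1 and 72.0 in WT and 103, 135, 97.1 and 90.3 in HT mice (log2 fold change 0.46, SE 0.18, limma, unadjusted p = 0.0222, BH-adjusted p = 0.77), with overlap. Srr, the racemase that makes D-serine, the other co-agonist of NMDA receptors, had 2306, 2668, 2562 and 2609 in WT and 2810, 2959.6, 2615 and 2671 in HT mice (log2 fold change 0.12, SE 0.06, limma, unadjusted p = 0.0431, BH-adjusted p = 0.77), also with overlap. None of 10 genes of proline metabolism reached an unadjusted p under 0.05, and their log2 fold changes lay between -0.06 and 0.03.

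Of the 7 NMDA receptor subunit genes, only Grin2b, which encodes GluN2B, reached an unadjusted p under 0.05. It had 13507, 20338, 18978 and 16988 normalized counts in WT and 22347, 21427, 17281 and 20712 in HT mice (log2 fold change 0.24, SE 0.11, limma, unadjusted p = 0.0454, BH-adjusted p = 0.77). WT replicate 1 was far below the other WT mice, and HT replicate 3 lay among them. The log2 fold change was 0.12 without that WT mouse, and the list then held 0 genes at an unadjusted p under 0.05. Grin1, the obligatory subunit that binds glycine, had a log2 fold change of 0.04 (SE 0.0442), and Grin2a of 0.09. All 6 genes of glycine receptors and their scaffold had positive log2 fold changes, the largest in Glra1 (0.24, SE 0.133), and none reached an unadjusted p under 0.05.

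Of 18 genes of AMPA receptors and their auxiliary subunits, 15 had a positive log2 fold change. At an unadjusted p under 0.05, 6 (33.3%, against 3.16% of all genes) were higher in HT mice. Shisa9, an auxiliary subunit, had 2249, 2198, 2194 and 2277 normalized counts in WT and 2629, 2546, 2458 and 2486 in HT mice (log2 fold change 0.18, SE 0.04, limma, unadjusted p = 7.23e-04, BH-adjusted p = 0.726), with no overlap. Cacng3 and Gsg1l, further auxiliary subunits, had log2 fold changes of 0.14 and 0.11, and Gria1 of 0.09, while the other pore-forming subunit genes Gria2, Gria3 and Gria4 lay between 0.0065 and 0.06 above that p. Of the kainate and delta receptor genes, Grik3 had 3740.5, 4312, 4298 and 4163 in WT and 4496, 4514, 4516 and 4699 in HT mice (log2 fold change 0.14, SE 0.05, limma, unadjusted p = 0.0105, BH-adjusted p = 0.768) and Grid1 also separated the genotypes (0.11), and 1 of these genes was at this level without WT replicate 1. The AMPA list without WT replicate 1 held 3 higher genes and 1 lower gene at an unadjusted p under 0.05. No metabotropic glutamate receptor gene reached an unadjusted p under 0.05.

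For GABA-A receptors, 6 of 14 subunit genes (42.9%, against 3.16% of all genes) were higher in HT mice at an unadjusted p under 0.05. Gabrq, the theta subunit gene, had 198, 221, 257 and 222 normalized counts in WT and 294, 274, 287 and 283 in HT mice (log2 fold change 0.35, SE 0.09, limma, unadjusted p = 0.00248, BH-adjusted p = 0.75). The HT mice were close to each other and above all WT mice. Gabrb2, a main beta subunit of the forebrain, had 3636, 4753, 4261 and 4113 in WT and 4608, 4888, 4406 and 4985 in HT mice (log2 fold change 0.18, SE 0.07, limma, unadjusted p = 0.024, BH-adjusted p = 0.77), with WT replicate 2 in the HT range. Without WT replicate 1, or without HT replicate 2, 1 gene was at this level, and the median went from 0.05 to 0.06.

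Genes of synaptic adhesion lay nearly all on the higher side. 41 of 43 had a positive log2 fold change, 9 (20.9%) were higher at an unadjusted p under 0.05 and 0 lower. Nlgn3, a postsynaptic partner of neurexins, had 3709.6, 3945, 3899.5 and 3967 normalized counts in WT and 4272, 4386, 4574 and 4655 in HT mice (log2 fold change 0.20, SE 0.04, limma, unadjusted p = 3.16e-04, BH-adjusted p = 0.726). Tenm3, a teneurin that binds latrophilins across the synapse, had 2792, 3042, 3276 and 2769 in WT and 3598, 3654, 3333 and 3452 in HT mice (log2 fold change 0.24, SE 0.06, limma, unadjusted p = 8.23e-04, BH-adjusted p = 0.726). In both genes all HT mice were above all WT mice.

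Further adhesion genes at this level included Cadm1, Slitrk1, Slitrk4, Mdga1, Lrrtm1 and Tenm1, with log2 fold changes from 0.10 to 0.25. The list median was 0.09, and between 0.06 and 0.11 with each mouse left out. Without WT replicate 1, 38 genes had a positive value and 4 were at an unadjusted p under 0.05, and over all mice left out in turn this number ran from 4 (HT replicate 1 or WT replicate 1) to 14 (WT replicate 2). The median was 0.0092 among mice with numbers starting 276 and 0.09 among those starting 278. The transcripts of the list are long, with a median of 6052 bases. HM mice had a median of 0.08 against the same WT mice and 0.001 against HT mice.

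Presynaptic release genes were positive in 30 of 36 cases, with 4 at an unadjusted p under 0.05 (5 without WT replicate 1). The number at that p was 1 without HT replicate 4, 2 without WT replicate 4 and 8 without HT replicate 2 or WT replicate 2. Syn2, a synapsin that tethers synaptic vesicles, had 15182, 14698, 15244 and 14783 normalized counts in WT and 15774, 15714, 16192 and 15847 in HT mice (log2 fold change 0.08, SE 0.03, limma, unadjusted p = 0.0252, BH-adjusted p = 0.77), a narrow separation with little spread within each genotype. Sv2c, a vesicle glycoprotein, had a log2 fold change of 0.19 and Nsf, the ATPase that recycles SNARE complexes, of 0.09. Postsynaptic scaffold genes were positive in 19 of 22 cases, and in 13 without WT replicate 1. Voltage-gated sodium and calcium channel genes had 3 of 31 at this level, among them Scn2a (0.12) and Scn3a (0.18). There was 1 without WT replicate 4 and 8 without WT replicate 2. Potassium channel genes had 3 higher and 3 lower of 80. These counts were 6 and 3 without HT replicate 3, and 1 and 3 without HT replicate 4.

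Axon guidance genes had 48 of 67 positive log2 fold changes. At an unadjusted p under 0.05, 13 were higher (19.4%, against 3.16% of all genes) and 3 lower (4.48%, against 3.26%). Besides Robo2, the higher genes included the Slit receptor gene Robo1 (0.18), the ligand gene Slit1 (0.11), the plexin gene Plxna4 (0.17), the ephrin receptor gene Epha7 (0.13) and the semaphorin gene Sema5a (0.18). Plxnb2, a receptor for class 4 semaphorins, was on the other side, with 2669, 2287, 2613 and 2601 normalized counts in WT and 2245, 2150.3, 2282 and 2122 in HT mice (log2 fold change -0.21, SE 0.05, limma, unadjusted p = 0.00199, BH-adjusted p = 0.74). Robo3 and the netrin gene Ntn5 were lower as well (-0.21 and -0.24). Without WT replicate 1, 7 genes were higher and 2 lower, and the number of higher genes ran from 5 (without HT replicate 4) to 14 (without WT replicate 2).

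The clustered protocadherins, cell surface proteins that give single neurons a molecular identity, had 45 of 56 positive log2 fold changes. They had 10 genes at an unadjusted p under 0.05 (17.9%, against 3.16% of all genes), all higher in HT mice. Pcdhb2 had 48.4, 67.9, 55.9 and 62.8 normalized counts in WT and 97.8, 80.5, 73.0 and 72.9 in HT mice (log2 fold change 0.46, SE 0.16, limma, unadjusted p = 0.0135, BH-adjusted p = 0.768). Pcdhgb2 had 395, 416, 391 and 379.5 in WT and 471, 465, 499 and 414 in HT mice (log2 fold change 0.22, SE 0.08, limma, unadjusted p = 0.011, BH-adjusted p = 0.768), and HT replicate 4 lay just below the highest WT mouse. Genes of the alpha and gamma clusters share constant exons, so their counts are not independent and each is uncertain. The median of the list was 0.11 (0.09 with 4 genes without WT replicate 1), and HT replicate 1 had the highest mean over the list, 0.16.

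Collagen genes, by contrast, were mostly on the lower side with or without WT replicate 1. 32 of 44 had a negative log2 fold change with a median of -0.13, and 7 (15.9%, against 3.26% of all genes) were lower at an unadjusted p under 0.05. These were 32 and 8 without WT replicate 1. Col24a1, a fibrillar collagen expressed in cortical neurons, had 659, 525, 642 and 724 normalized counts in WT and 412, 303, 523 and 348 in HT mice (log2 fold change -0.71, SE 0.14, limma, unadjusted p = 2.76e-04, BH-adjusted p = 0.726). Col11a1, another fibrillar collagen, had 1443, 1377, 1202 and 1221 in WT and 942, 1135, 1167 and 1095 in HT mice (log2 fold change -0.27, SE 0.08, limma, unadjusted p = 0.00366, BH-adjusted p = 0.752). Col6a1, a chain of microfibrillar collagen VI, had 3580, 3729, 3790.1 and 3453 in WT and 2947, 3225, 3384 and 3349.8 in HT mice (log2 fold change -0.17, SE 0.05, limma, unadjusted p = 0.00462, BH-adjusted p = 0.765). None of the 3 overlapped between genotypes.

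The basement membrane collagens Col4a1 and Col4a2 of vessels had log2 fold changes of -0.19 and -0.17, Col5a1 of -0.22 and Col16a1 of -0.14, and Col25a1, a membrane collagen of neurons, was the only one higher at an unadjusted p under 0.05 (0.14). The main fibrillar genes of the meninges, Col1a1 and Col1a2, had 0.0084 and -0.11. Over the whole list, HT replicate 1 had the lowest mean, -0.17, while HT replicates 2 and 3 lay at -0.01 and 0.07, inside the WT range. Over the 8 fits without 1 mouse, the number of lower genes ran from 4 to 8 and the median was nearest to 0 at -0.08, the lowest number and this median both without HT replicate 1. The median of HM against the same WT mice was -0.12, and of HM against HT mice -0.02.

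Genes that respond to glucocorticoids, the stress hormones of the adrenal cortex, were on the lower side in 15 of 17 cases. 6 of them (35.3%) were lower at an unadjusted p under 0.05, and the median was -0.16. Sgk1, a kinase induced by the hormone, had 5638, 6416, 6196 and 5730.3 normalized counts in WT and 5201, 5795, 4786 and 4893 in HT mice (log2 fold change -0.22, SE 0.06, limma, unadjusted p = 0.00372, BH-adjusted p = 0.752). HT replicate 2 overlapped the WT mice. Mt2, a metal-binding metallothionein, had 3044, 3280.2, 3274 and 2865 in WT and 2788, 2861, 2597 and 2827 in HT mice (log2 fold change -0.17, SE 0.05, limma, unadjusted p = 0.00672, BH-adjusted p = 0.768), and the highest HT mouse was just below the lowest WT mouse. Mt1 had 7497, 7219.7, 7516 and 6573 in WT and 6619.8, 6484, 6547 and 6510.5 in HT mice (log2 fold change -0.14, SE 0.05, limma, unadjusted p = 0.00943, BH-adjusted p = 0.768), with HT replicate 1 above WT replicate 4.

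The other 3 genes at this level were Errfi1 (-0.26), Nfkbia, an inhibitor of NF-kappaB (-0.24), and Cdkn1a, an inhibitor of the cell cycle (-0.39). Fkbp5 and Tsc22d3, classical targets of the receptor, had -0.16 (SE 0.116) and -0.10 (SE 0.0507). WT mice were split, with list means of 0.31 and 0.23 in replicates 2 and 3 and -0.10 and -0.13 in replicates 1 and 4. HT mice lay between -0.18 and 0.04, so the groups overlapped. With WT replicate 1 left out all 17 genes were negative and 9 were at an unadjusted p under 0.05, whereas the count was 3 without WT replicate 2, 4 without WT replicate 3 or HT replicate 3, and 10 without WT replicate 4.

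Ribosomal and mitochondrial lists depended on which mice were included. Of 82 cytosolic ribosomal protein genes, 76 had a negative log2 fold change with a median of -0.08, and 21 were lower at an unadjusted p under 0.05. Without WT replicate 1 there were 61 and 12, with a median of -0.02. The number of lower genes was 8 without HT replicate 4 and 35 without WT replicate 2. The median was 0.04 among mice with numbers starting 276 and -0.08 among those starting 278. The mean over the list was 0.17 in WT replicate 1, -0.07 to 0.05 in the other WT mice and -0.10 to 0.003 in HT mice. Rpl35a, of the large subunit, had 2876, 2534, 2727 and 2664 normalized counts in WT and 2381, 2421, 2431 and 2532 in HT mice (log2 fold change -0.14, SE 0.05, limma, unadjusted p = 0.00883, BH-adjusted p = 0.768), and Rps27l, of the small subunit, 253, 222, 227 and 234 and 192, 187, 193 and 207 (log2 fold change -0.26, SE 0.09, limma, unadjusted p = 0.0103, BH-adjusted p = 0.768). Both separated the genotypes in all mice, while ribosomal protein genes have many processed copies with which they may share reads.

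Nuclear-encoded genes of the respiratory chain had 62 of 78 negative log2 fold changes and a median of -0.04. Without WT replicate 1 they were divided evenly, 39 negative and 39 positive, with a median of -0.001, and the genes at an unadjusted p under 0.05 went from 8 lower to 2 lower and 2 higher. Without WT replicate 2, 16 genes were lower. Cox8a, a subunit of cytochrome c oxidase, had 12596, 11134, 11940 and 11954 in WT and 10346, 10632, 11098 and 10758 in HT mice (log2 fold change -0.15, SE 0.04, limma, unadjusted p = 0.00344, BH-adjusted p = 0.752). Mitochondrial ribosomal protein genes went from 7 of 78 lower to 2. The median transcript lengths of these lists were 1107.5 bases (cytosolic ribosome), 1135 bases (respiratory chain) and 1866.5 bases (mitochondrial ribosome), within or near the shortest quintile. When the trend of each mouse with transcript length and GC was removed, the medians were -0.04, -0.01 and -0.03. The part of RNA quality in them was not tested.

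Genes encoded by mitochondrial DNA had 12 of 13 negative log2 fold changes, with very uneven values. mt-Co2 had 28540, 34791, 67389 and 8068 normalized counts in WT and 14290, 11990, 7221 and 13946 in HT mice (log2 fold change -1.24, SE 0.46, limma, unadjusted p = 0.0178, BH-adjusted p = 0.768). WT replicate 4 was lower than 3 of the HT mice, and WT replicate 3 was far above all others. mt-Co3 had 85610, 88194, 38875 and 55389 in WT and 38992, 36166, 48508 and 51415 in HT mice (log2 fold change -0.55, SE 0.21, limma, unadjusted p = 0.0202, BH-adjusted p = 0.77). The 2 genes had their highest WT value in different mice, and copies of mitochondrial sequence in the nuclear genome make these counts uncertain.

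**Figure D5:**
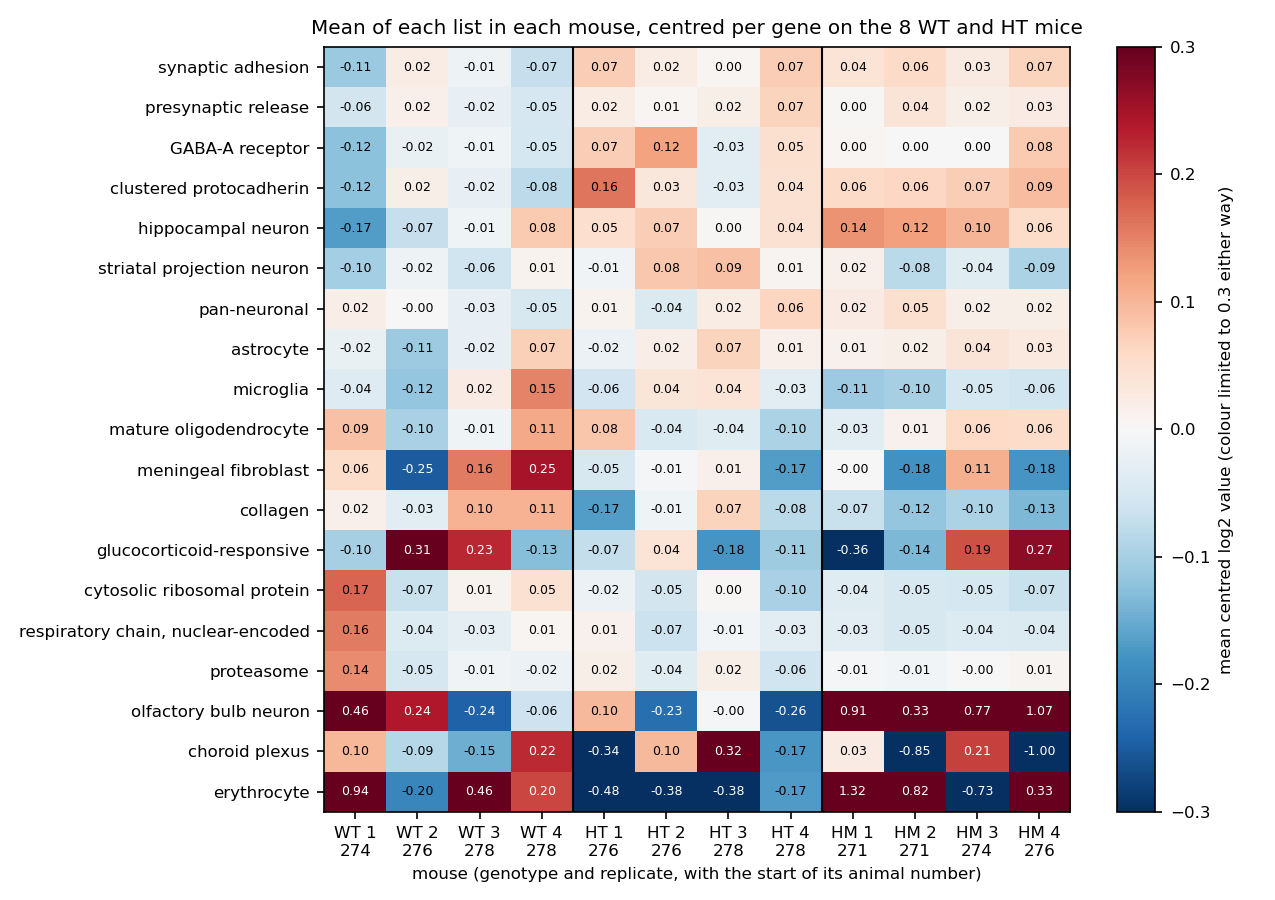
Mean centred log2 value (colour and printed number) of 19 lists (rows) in each WT, HT and HM mouse (columns), with the start of each animal number below. WT replicate 1 is the highest WT and HT mouse for the ribosomal, respiratory chain, proteasome, olfactory bulb and erythrocyte lists and the lowest for the synaptic lists shown, and the glucocorticoid list splits the WT mice.

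Several lists that bear on the response to altered amino acid supply, activity or stress had no member at an unadjusted p under 0.05. These were the 16 ATF4 targets of the amino acid response (median 0.01), the 18 immediate early genes of neuronal activity (median 0.03), the 20 heat shock and chaperone genes (median -0.01) and the 20 genes of cholesterol synthesis (median 0.02). In cholesterol synthesis 4 genes were higher without WT replicate 1. Asns, asparagine synthetase, an ATF4 target, had a log2 fold change of 0.13 (SE 0.0615). Of 16 clock genes only Nr1d1 (0.13), of 37 proteasome genes only Psmd1 (0.10) and of 17 interferon-stimulated genes only Usp18 (-0.59) were at this level. In the PAF1 complex, which acts with RNA polymerase II, Cdc73 had 1262, 1289, 1369.9 and 1458 normalized counts in WT and 1999, 1771, 1481 and 2165 in HT mice (log2 fold change 0.45, SE 0.10, limma, unadjusted p = 3.91e-04, BH-adjusted p = 0.726), and the 5 other subunit genes lay between -0.07 and 0.06. Snrnp70, a U1 spliceosomal protein, had 15057, 15452, 14807 and 14379 in WT and 12713, 13546, 13669 and 13527 in HT mice (log2 fold change -0.16, SE 0.04, limma, unadjusted p = 0.00114, BH-adjusted p = 0.726), the only one of 13 U1 and Sm protein genes at an unadjusted p under 0.05.

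Sets of genes from the study's own collection were described by the same counts. At an unadjusted p under 0.05, 74 of 706 FMRP targets (10.5%, against 3.16% of all genes) were higher in HT mice and 6 lower. These targets are messenger RNAs bound by the protein lost in fragile X syndrome. Without WT replicate 1 the counts were 57 and 10. Of 890 genes of the SFARI autism list, 75 were higher and 16 lower, and 44 and 24 without that mouse. Median transcript lengths were 6316.5 bases for the FMRP targets and 5033.5 bases for the SFARI genes. They fall in the longest and the next quintile, where 8.56% and 4.63% of protein-coding genes were higher and 1.62% and 2.38% lower. The part of transcript length in the counts of these sets was not tested. Over the 8 fits that each leave out 1 mouse, the higher FMRP targets numbered 39 (HT replicate 4) to 111 (WT replicate 2) and the higher SFARI genes 44 (WT replicate 1) to 99 (WT replicate 2). Among sets of genes typical of human cell classes, those of cortical glutamatergic neurons of layers 2 to 4 had 15 higher and 1 lower of 96 (10 and 2 without that mouse). The set of NOS1 interneurons had 17 higher and 1 lower of 98 (11 and 1 without that mouse), and in both neuronal sets 8 were higher without WT replicate 4. The set of microglia had 1 higher and 6 lower of 88 (0 and 7 without WT replicate 1), and its median was the 1 negative median of these 5 sets. Without WT replicate 4 it had 4 higher and 5 lower, with 49 positive and 39 negative values and a median of 0.014. The median log2 fold changes of these sets lay between -0.03 and 0.05.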

How the data were processed

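Whole-brain RNA of 12 mice was sequenced from TruSeq RNA kit v2 libraries of RNA purified on poly-T beads. The authors estimated transcript abundance with Salmon 1.1.0 on GRCm38, summed it to genes with tximport and normalized it with DESeq2 1.30.1 in R 4.1.1, per the submitters' notes. The deposited table holds normalized counts, a signal scaled between mice and no longer whole reads: at most 24.2% of values under 20 were whole multiples of a common step (tolerance 0.02 reads). Reads could therefore not be recovered, count models were not run, and the depth per mouse is unknown. Columns of per-sample values left unused numbered 0. Columns were matched to mice by their labels, and the columns marked KO were taken as HM.

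Log2(normalized count + 1) of the 8 HT and WT mice was fitted with limma 3.58.1 (R 4.3.3, empirical Bayes with trend, two-sided, threshold of 0.05 on BH-adjusted p) for genes averaging 10 or more. HM mice were compared with HT and WT mice in fits of their own. Python 3.11.15 (numpy 2.4.6, pandas 2.3.3, scipy 1.17.1, matplotlib 3.10.9) was used for summaries, and scripts were tested on simulated data. GENCODE M21 gave positions and the longest transcript of 19758 of the 19775 genes. Named genes were Slc6a20a, the first 10 non-overlapping and the 5 most changed protein-coding genes in each direction at a mean of at least 100, leaders of each list and level class, the first markers of each cell type, and genes called with a mouse left out. Genes that the text names beside these are list members picked once their values were known. The members and lists were chosen with earlier results of these data known, and the disease and cell class sets are those the study used. The labels name separate mice.

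Replicate numbers were checked for pairing. Deviations of WT and HT mice with the same number correlated by 0.098, 0.078, -0.076 and 0.007 across genes, so the numbers were not taken to pair the mice. Correlations between mice of a genotype ran from 0.987 to 0.989. Alternatives covered the pseudocount, the filter, the scaling, the variance prior, length and GC content, blocks and each mouse left out. Some of the genes that the rule names are not reported here.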

Additional observations from a re-analysis of the deposited data

Results flagged for a closer look

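In groups of 4 mice, the highest or lowest value was set against the other 3 by Dixon's criterion. Of 382 groups looked at, 17 were flagged, and chance flags about 1 in 20. None was tested further.

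Among WT mice, replicate 1 was apart for Pvalb, with 1615 normalized counts against 1296 to 1329 in the others, for Slc6a5, with 44.5 against 7.42 to 11.02, and for the mean of the postsynaptic scaffold list, with -0.11 (centred log2) against 0.0063 to 0.015. Replicate 2 had 2983 normalized counts of Col4a1 against 2261 to 2347. Replicate 3 had 2574 of Cacng3 against 2297 to 2327. Replicate 4 had 403 of Tek against 292 to 305, and its mean of the glycine and serine metabolism list was 0.036 against -0.031 to -0.025.

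Among HT mice, replicate 1 had 12713 normalized counts of Snrnp70 against 13527 to 13669, and its mean of the GABAergic interneuron list was 0.058 against 0.0029 to 0.0073 and of the oligodendrocyte precursor list 0.078 against -0.028 to -0.021. Replicate 2 had 1072 of Nfkbia against 799 to 845, 3750.2 of Psmd1 against 3978 to 4015, and 18682 of Grin1 against 20084 to 20225. Replicate 3 had 26.4 of Gm1980 against 0 in each of the others. Replicate 4 had 4699 of Grik3 against 4496 to 4516, 325 of Reep6 against 337 to 338, and 466 of Ly6a against 526 to 537.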

How the results depend on the processing

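The direction and call of Slc6a20a held in all fits except that without a trend in the variance prior, where its adjusted p was 0.145 (log2 fold change -0.97, limma) and 0 genes were called. Leaving out each mouse gave log2 fold changes of Slc6a20a from -1.04 to -0.92 and from 1 to 5 called genes. The 5 were Slc6a20a, Cdc73, Col24a1, Gm1980 and Gm49450, without HT replicate 3. Without WT replicate 2 there were 2, Slc6a20a and Gm37206. Genes at an unadjusted p under 0.05 then numbered 392 to 657 higher and 476 to 613 lower, and those counts were 477 and 613 without WT replicate 1.

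With the replicate number as a block, Slc6a20a was again the 1 gene called (log2 fold change -0.97, limma, BH-adjusted p = 0.0133), and 530 genes were higher and 629 lower at an unadjusted p under 0.05. The block changed no other call. With the start of the animal number as a block these were 540 and 657. Correction for transcript length and GC content gave 428 and 690, against 569 and 587 in the main analysis; the cause was not tested.

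Of the main results, 72 values under alternatives kept their direction and side of the threshold, 3 moved and 1 became weaker. TMM, edgeR and DESeq2 were not run, as whole reads were not recovered. Depth is unknown, there were 4 mice per genotype, and of 18004 genes adjusted together only Slc6a20a was called in the main analysis.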
